A study of Homo sapiens with 10 samples.

Results

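BRM-mut, an ATPase-deficient form of the chromatin remodelling ATPase BRM, was compared with the empty vector in C33A cells, a human cervical carcinoma line with little or no BRG1 and BRM protein. The BRM-mut libraries came from cells transfected with the plasmid pCG-hBrm-K798R, in which a lysine needed for ATP binding is exchanged for arginine, and the control libraries came from cells transfected with pOPRSVI. RNA was taken 48 h after a transient transfection, and each group had 2 libraries, with no label tying a replicate number to a culture or a day. BRM-mut and control differ in the plasmid backbone as well as in the protein, and these cannot be told apart here. The same control libraries were also set against BRM-wt (pCG-hBrm), BRG1-wt (pBJ5-BRG1) and BRG1-mut (pBJ5-BRG1-K798R), with 2 libraries each.

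The members were all exon events that the tables of BRM-mut against control list, which gave 516 events in replicate 1 and 486 in replicate 2, of 5191 in the whole series. An event is a cassette exon with its 2 neighbours, and its PSI gives how much of the transcript pool of 1 library holds the exon. The 954 distinct events fell on 927 distinct exons in 796 genes, of 2969 distinct exons over all 4 comparisons. BRM-mut had 690 genes with a single listed exon and 106 with several, up to 5 in one gene. The tables list only events that passed a Bayes factor of 10 in that replicate, so a large difference from control is part of the listing and is described here without a test. Direction, exon sequence and the agreement between the replicates did not enter the listing.

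BRM, encoded by SMARCA2, and BRG1, encoded by SMARCA4, are the alternative ATPase subunits of SWI/SNF complexes, which use ATP to slide or evict nucleosomes. Most splicing takes place while RNA polymerase II transcribes chromatin, and cassette exons are included or skipped according to the strength of their splice sites, the RNA-binding proteins on the transcript and the speed of the polymerase. SR proteins commonly favour inclusion of the exons they bind, and many hnRNPs oppose it. A skipped exon whose length is a multiple of the codon length leaves the reading frame intact, and other coding exons shift it.

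SMARCA2 transcripts were far more abundant with the BRM plasmids than without them. The base mean, the authors' mean of size-factor-scaled counts over the 2 group and 2 control libraries, was 75591 for SMARCA2 in the BRM-mut table and 59658 in the BRM-wt table, but 12.6 in the BRG1-wt and 9.33 in the BRG1-mut table. Since the control libraries are shared, these values bound the control level from above, and SMARCA2 in BRM-mut was at least 7597 times the control. Endogenous SMARCA4 transcripts had a base mean of 3076 in the BRM-mut table. Among the 12987 genes whose base mean reached 50, only SMARCA2 and HSPA6, an inducible heat shock chaperone, had a bound of at least 2 (0.0154%). HSPA6 had a base mean of 148.6 with BRM-mut, 21.8 with BRM-wt, 150.5 with BRG1-wt and 89.5 with BRG1-mut, and its bound was 5.42 times the control. A gene that was higher by less, or lower, cannot be seen with such a bound. How many cells took up the plasmid and how much each of them transcribed cannot be told apart in bulk RNA. Over the 4 tables VIM, a mesenchymal filament, had a base mean of 11103 to 12049 and the leukocyte phosphatase PTPRC one of 1529 to 1851. The mesenchymal FN1 and CDH2 were at 123.4 to 149.4 and 82.1 to 96.3. These markers varied less between the tables than the keratins KRT18 and KRT8. Of the epithelial markers, KRT18 was at 263.3 to 695.8, EPCAM at 22.6 to 30.2, CDH1 at 3.05 to 6.27 and KRT19 at 0 to 1.23, and the T cell marker CD3E and the red cell marker HBB were at 0. The keratin KRT8 had a base mean of 90.8 in the BRM-mut table, against 371.4 with BRM-wt, 455.7 with BRG1-wt and 134.1 with BRG1-mut.

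The exons whose inclusion moved the same way in both replicates are shown first, since the results below turn on them. Each line gives the coding exon in capitals between the last 20 bases of the intron before it and the first 6 bases of the intron after it, from GRCh37 and in the direction of the transcript. IMMT and PHB2 are shown as the shortest, ANKRD12 and GCSH as exons more often included with BRM-mut, and ZC3H4, CCND3 and FKBP1A as exons less often included.
IMMT exon 11 (chr2:86380683-86380697, minus strand): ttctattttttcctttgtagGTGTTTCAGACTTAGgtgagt
PHB2 exon 9 (chr12:7075074-7075079, minus strand): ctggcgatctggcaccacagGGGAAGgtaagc
ANKRD12 exon 4 (chr18:9204474-9204542, plus strand): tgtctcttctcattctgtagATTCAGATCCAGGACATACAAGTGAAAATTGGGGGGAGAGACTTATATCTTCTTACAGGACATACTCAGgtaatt
GCSH exon 3 (chr16:81121206-81121269, minus strand): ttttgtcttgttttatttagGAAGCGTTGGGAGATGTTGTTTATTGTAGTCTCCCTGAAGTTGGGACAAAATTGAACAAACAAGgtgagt
ZC3H4 exon 6 (chr19:47589641-47589795, minus strand): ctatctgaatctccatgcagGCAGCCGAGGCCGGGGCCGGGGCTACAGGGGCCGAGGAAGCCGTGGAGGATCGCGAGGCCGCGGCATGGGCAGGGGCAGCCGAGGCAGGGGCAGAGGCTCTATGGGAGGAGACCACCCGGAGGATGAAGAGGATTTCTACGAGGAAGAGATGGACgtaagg
CCND3 exon 4 (chr6:41904297-41904433, minus strand): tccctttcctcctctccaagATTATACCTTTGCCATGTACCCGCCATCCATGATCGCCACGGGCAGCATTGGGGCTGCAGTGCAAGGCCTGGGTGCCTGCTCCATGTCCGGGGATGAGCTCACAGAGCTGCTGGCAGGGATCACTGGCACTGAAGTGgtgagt
FKBP1A exon 3 (chr20:1356135-1356247, minus strand): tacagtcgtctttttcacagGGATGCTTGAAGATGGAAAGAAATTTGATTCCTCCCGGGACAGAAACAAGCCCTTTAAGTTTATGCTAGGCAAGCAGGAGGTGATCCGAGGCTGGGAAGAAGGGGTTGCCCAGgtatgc

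About as many exons had a higher as a lower inclusion with BRM-mut. In replicate 1, 242 exons had a higher PSI than in control and 253 a lower one, a share of 48.9% higher (exact 95% binomial interval 44.4 to 53.4, counting error only), and 2 exons had events in both directions. In replicate 2, 236 exons were higher and 243 lower, or 49.3% (44.7 to 53.8). Over both replicates, 443 of 904 exons with a single direction were higher, or 49.0% (45.7 to 52.3), and 23 exons had opposite directions.

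The differences themselves were broad. The median absolute PSI difference was 0.23 in replicate 1 (quartiles 0.12 and 0.40, maximum 0.72) and 0.22 in replicate 2 (quartiles 0.11 and 0.37, maximum 0.98). Events with a higher PSI went from a median of 0.29 in control to 0.69 in BRM-mut in replicate 1 and from 0.30 to 0.75 in replicate 2. Those with a lower PSI went from 0.66 to 0.28 in replicate 1 and from 0.72 to 0.29 in replicate 2. The plot of the PSI in control and BRM-mut libraries shows an empty diagonal, which is the listing rule itself.

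**Figure D1:**
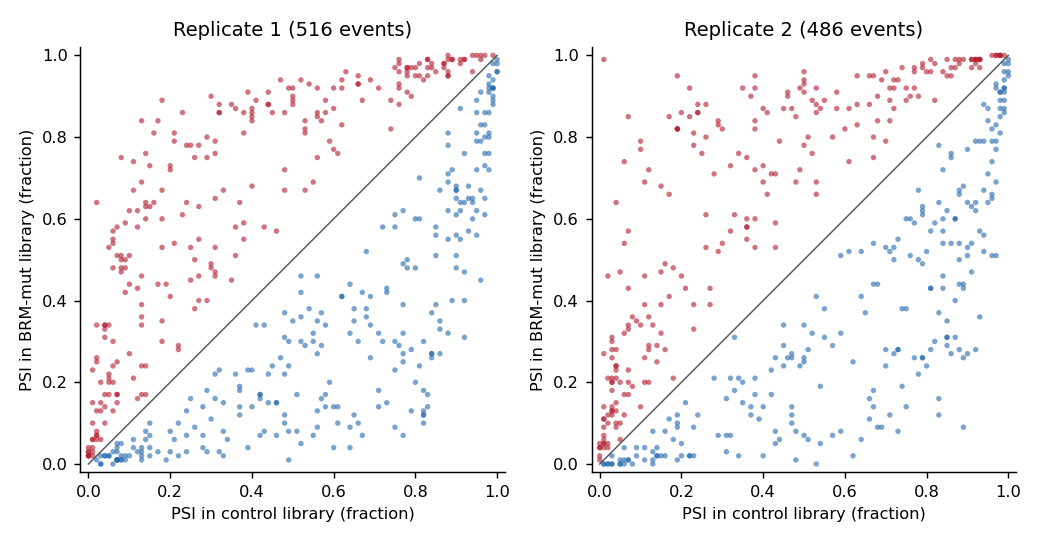
PSI of every listed event in the BRM-mut library (vertical axis, fraction) against the control library of the same number (horizontal axis, fraction), 516 events in replicate 1 and 486 in replicate 2. Red points lie above the grey line of equal PSI and blue points below it, and both colours are about equally frequent.

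The larger the listed difference, the lower was the median base mean of the host gene. The Bayes factor of the listing depends on both the size of a difference and the reads behind it. This order therefore describes the list and was not tested. In replicate 1 the median base mean of the host gene was 8404 for events under 0.05, 3264 from 0.05 to 0.2, 1413 from 0.2 to 0.5 and 501 at 0.5 or more. In replicate 2 these medians were 9321, 2574, 1061 and 458. Single genes depart from these medians, such as PHB2 and CDC42, whose large differences in replicate 2 came at base means of 9224 and 8754. The reads behind a single PSI are unknown, so the differences below have no interval.

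Few exons were listed in both replicates. Only 49 exons appeared in both replicates, or 9.86% of the exons in replicate 1 and 10.2% of those in replicate 2, while 878 appeared in 1 replicate. An exon that is missing from a list was not shown to be unaffected, since the tables name no event that failed the Bayes factor. Of the 49 exons, 28 moved in the same direction both times and 21 moved in opposite directions. The share with one direction was 57.1% (exact 95% interval 42.2 to 71.2), and the interval includes an even split. For 48 of the 49 exons the same event was listed both times, so that the PSI was known in all 4 libraries. Of these 48 events, 27 had a single direction, 14 higher and 13 lower. The BRM-mut and control values did not overlap in 21 of the 48 events (43.8%), 12 higher and 9 lower. Each listed event already had to differ from its matched control, so this count is in part set by the listing. With 2 libraries per group a two-sided exact permutation test cannot give a p under 0.333, so none is given, and the PSI of each library is shown instead.

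**Figure D2:**
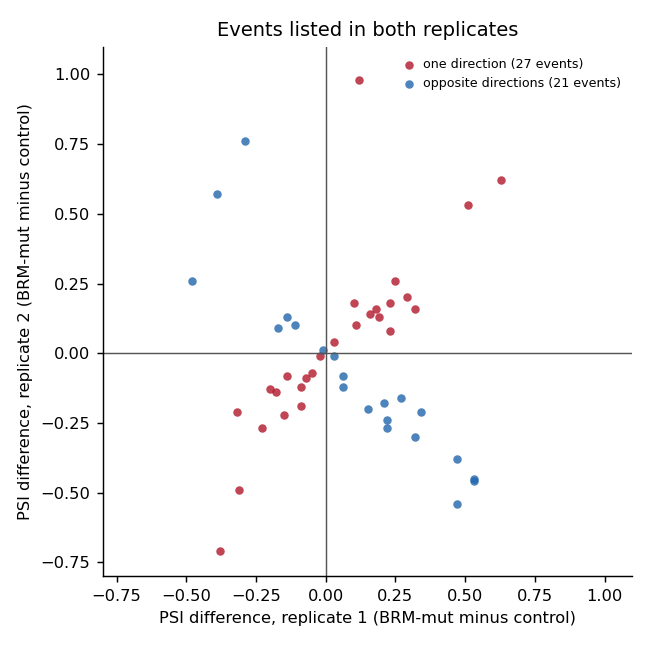
PSI difference, BRM-mut minus control as a fraction, in replicate 2 (vertical axis) against replicate 1 (horizontal axis) for the 48 events listed in both. The 27 red events share a direction and the 21 blue events do not, and 14 of the blue ones sit at the lower right, higher in replicate 1 and lower in replicate 2.

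Exon 2 of TIRAP had the greatest positive PSI difference that was seen in both replicates. TIRAP (ENSG00000150455) is the adaptor that carries signals from Toll-like receptors 2 and 4, and the 153 bp exon at chr11:126159560-126159712 lies outside the coding part of the annotated transcripts. The control libraries had a PSI of 0.11 and 0.26, and the BRM-mut libraries 0.74 and 0.88. A longer form of 169 bp with the same start had 0.27 and 0.37 in control and 0.78 and 0.90 with BRM-mut. Both forms share reads and are not independent, yet the counts of exons and events given here hold each form separately. In neither form did the groups overlap, and the gene's base mean was 345.2. Another exon of TIRAP (297 bp) was listed in replicate 1 alone and went from 0.15 to 0.63. The 153 bp exon was also listed with BRM-wt in replicate 1 at 0.60 and with BRG1-mut at 0.47 and 0.79.

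Coding exons of IMMT, GCSH and HNRNPA1 were more often included both times. IMMT, the core of the mitochondrial contact site complex, had a 15 bp exon whose PSI was 0.56 and 0.63 for control against 0.85 and 0.83 for BRM-mut. GCSH, the H protein of the mitochondrial glycine cleavage system, had 0.13 and 0.03 in control and 0.36 and 0.21 with BRM-mut for a 64 bp exon that breaks the reading frame when skipped. The 147 bp exon 3 of HNRNPA1, a splicing repressor, had 0.30 and 0.27 in control and 0.48 and 0.43 with BRM-mut. All 3 exons had groups that did not overlap, with differences of 0.16 to 0.29 in single replicates. With BRM-wt, the IMMT event was listed in replicate 1 at 0.24, below control, and the HNRNPA1 event in replicate 2 at 0.47, above control. HNRNPA1 and GCSH have processed pseudogenes whose reads can be shared, so their values are less certain. The base means were 10753 for IMMT, 139.9 for GCSH and 12176 for HNRNPA1.

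ANKRD12, an ankyrin repeat protein of the nucleus, had 0.19 and 0.07 in control and 0.44 and 0.33 with BRM-mut for its 69 bp exon 4. A 44 bp exon in SBNO1, at chr12:123842356-123842399 and within the gene but not annotated, had 0.02 and 0.07 in control and 0.34 and 0.23 with BRM-mut. Both exons were mostly skipped in control, and their groups did not overlap. SMN1 exon 6 (96 bp) had 0.83 and 0.85 in control and 0.99 in both BRM-mut libraries. SMN1 builds the small nuclear ribonucleoproteins of the spliceosome, and its near-identical copy SMN2 makes this PSI uncertain.

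The 6 bp exon of PHB2 was an example of a direction that held while the size did not. PHB2 is prohibitin 2, a scaffold of the inner mitochondrial membrane. Its PSI was 0.88 in control and 1.00 with BRM-mut in replicate 1, but 0.01 in control and 0.99 with BRM-mut in replicate 2. The control libraries differed by more than either BRM-mut library from control replicate 1, and the base mean was 9224. In the other groups the same event was listed at 0.55 with BRM-wt replicate 2, at 1.00 and 0.40 with BRG1-wt and at 0.01 and 0.92 with BRG1-mut, so the values spanned the whole scale. The remaining exons that were higher both times changed little or overlapped. HPS5 went from 0.87 and 0.88 to 0.98 both times, NEK3 from 0.89 and 0.81 to 0.99 both times, and ZNF410 from 0.01 and 0.00 to 0.04 both times. In BBLN, with 0.78 and 0.53 in control and 0.97 and 0.66 with BRM-mut, and in RPS3, with 0.76 and 0.67 against 0.99 and 0.75, the groups overlapped.

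Lower inclusion in both replicates was led by exons of TBC1D5 and PPM1K, both outside the coding part of annotated transcripts. TBC1D5 regulates Rab7 in endosomal sorting, and its 114 bp exon 2 (chr3:17627845-17627958) had 0.49 and 0.86 in control and 0.08 and 0.27 with BRM-mut, the 2 replicates being listed with different downstream exons. PPM1K is the mitochondrial phosphatase that activates the breakdown of branched-chain amino acids. Its 107 bp exon 2 (chr4:89199688-89199794) had 0.48 and 0.83 in control and 0.10 and 0.12 with BRM-mut, at a base mean of 202.8. A 499 bp form of the PPM1K exon, listed in replicate 2, went from 0.88 to 0.50. In PPM1K the control libraries differed by 0.35, and both lay above both BRM-mut libraries. In TBC1D5 the values of the replicates belong to different events and can be compared only within a replicate.

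Exons of CCND3 and ZC3H4 were also less often included both times. CCND3 encodes cyclin D3, which drives G1 with CDK4 and CDK6, and its 137 bp exon 4 had 0.68 and 0.88 in control and 0.36 and 0.67 with BRM-mut. ZC3H4, a zinc finger protein that limits non-coding transcription, had 0.37 and 0.59 in control and 0.14 and 0.32 with BRM-mut for a 155 bp exon with a GC content of 69.0%. Skipping either exon shifts the frame. The groups did not overlap, although CCND3 replicate 2 with BRM-mut lay only 0.01 below control replicate 1. With BRM-wt, replicates 1 and 2 had 0.92 and 0.36 for the CCND3 exon and 0.65 and 0.27 for the ZC3H4 exon. Both exons were thus above control in replicate 1 and below it in replicate 2 with BRM-wt. BRD2, a bromodomain protein that reads acetylated histones, had 0.32 and 0.64 in control and 0.23 and 0.52 with BRM-mut for an exon of 1333 bp, and here the groups overlapped.

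In PMS2P6, a pseudogene of the mismatch repair gene PMS2, an 89 bp exon had 0.33 and 0.54 in control and 0.02 and 0.05 with BRM-mut. The gene's own base mean was 0.25, and the exon cannot be assigned to a single copy of the family. AP3M1, a subunit of the AP-3 vesicle coat, had 0.19 and 0.23 in control and 0.01 and 0.09 with BRM-mut. FKBP1A, the FK506-binding protein, had 0.31 and 0.42 in control and 0.22 and 0.23 with BRM-mut. Neither of these last 2 exons had overlapping groups. RPS15A, a ribosomal protein with many pseudogenes, had 0.80 and 0.92 in control and 0.60 and 0.79 with BRM-mut.

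Other exons with lower inclusion overlapped or changed by little. RBM4, a splicing regulator, had 0.36 and 0.59 in control and 0.22 and 0.51 with BRM-mut, and YTHDF1, a reader of methylated adenosines, had 0.41 and 0.61 against 0.34 and 0.52. In both genes the PSI in replicate 2 was above that in replicate 1 in both groups, by more than BRM-mut differed from control. MED20 of the Mediator complex went from 0.99 both times to 0.94 and 0.92, and HNRNPH1 from 0.04 and 0.03 to 0.02 both times.

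**Figure D3:**
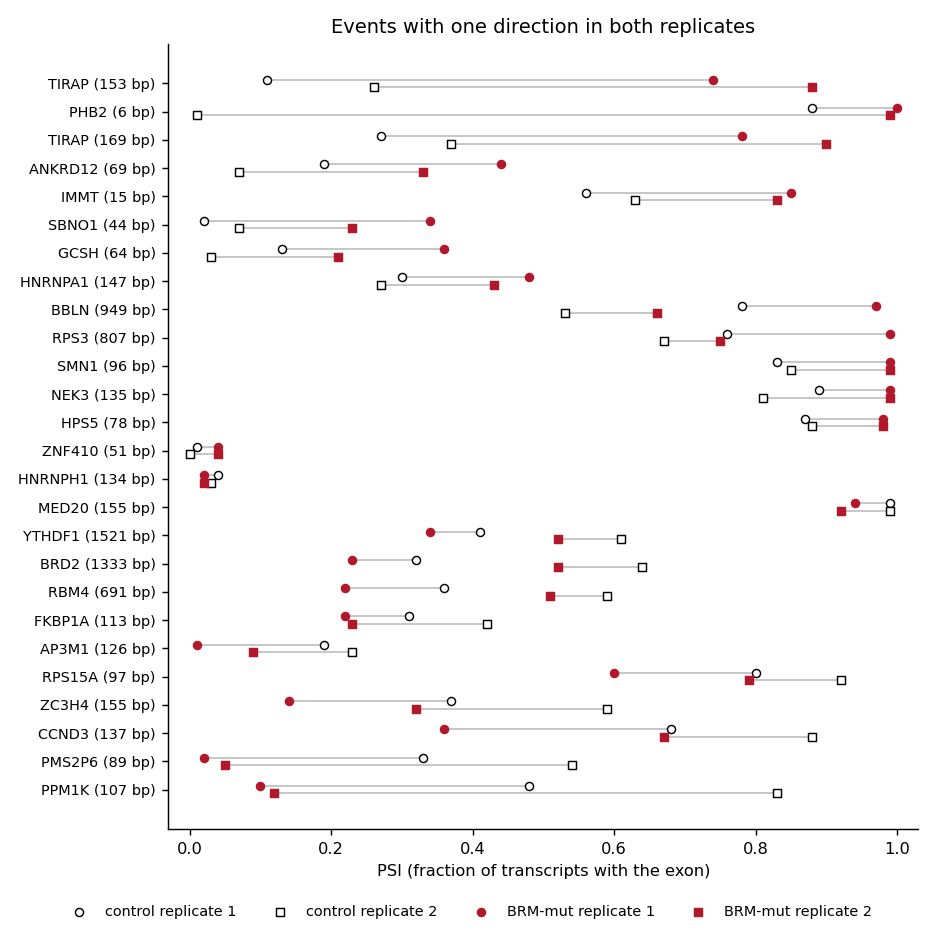
PSI (horizontal axis, fraction) of 26 of the 27 events with one direction in both replicates, ordered by mean difference, with the exon length in parentheses. Open symbols are control and red symbols BRM-mut, circles replicate 1 and squares replicate 2, and grey lines join libraries of the same number. TIRAP stands at the top with all BRM-mut values at 0.74 or above, and PPM1K at the bottom with 0.10 and 0.12.

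The 27 events had a median absolute mean difference of 0.17 (range 0.015 to 0.625). Of these events, 13 had a length in whole codons and 14 did not, and 15 lay wholly in coding sequence. The 14 higher events had a GC content of 48.8% ± 7.83 (SD over exons) and the 13 lower events 54.9% ± 7.53. Of the 27, 22 were listed with another group too, 19 of them with BRM-wt, against the same control libraries. Such a listing does not give a direction. With BRM-wt the direction was opposite to BRM-mut for IMMT, the same for HNRNPA1, and turned between replicates for CCND3 and ZC3H4. Events with opposite directions in BRM-mut, such as those of MAP3K8 and KLHL5, were also listed with other groups, so this was not particular to the 27.

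The 21 events with opposite directions mostly followed one pattern. In 14 of them the PSI was higher than control in replicate 1 and lower in replicate 2. Averaged over these 14, the PSI of replicate 1 was 0.45 for control and 0.73 for BRM-mut, and that of replicate 2 was 0.70 for control and 0.44 for BRM-mut. In all 14, control replicate 2 lay above control replicate 1 and BRM-mut replicate 2 below BRM-mut replicate 1. The median gap between the control libraries was 0.20 over the 21 events and 0.11 over the 27 with one direction, and that between the BRM-mut libraries was 0.26 and 0.11.

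By the smaller of the 2 absolute differences, the most divergent cases reached 0.47, against 0.62 among the events with one direction. SLC2A11, a glucose transporter family member, had 0.25 and 0.70 in control and 0.78 and 0.24 with BRM-mut. MAP3K8, a kinase of inflammatory signalling, had 0.20 and 0.73 in control and 0.73 and 0.28 with BRM-mut. TFDP2, the dimerisation partner of E2F factors, had 0.47 and 0.84 in control and 0.94 and 0.46 with BRM-mut. In each of these 3 genes the libraries fell into a high and a low pair that crossed the groups. CBWD5 had 0.44 and 0.85 in control and 0.91 and 0.31 with BRM-mut, and ANKRD36B had 0.62 and 0.92 against 0.94 and 0.62. ACSL1, which activates long-chain fatty acids, ran the other way with 0.46 and 0.35 in control and 0.07 and 0.92 with BRM-mut. CBWD5 and ANKRD36B belong to families of near-identical copies. Of the other events with opposite directions, 14 were in CDC42, RPL41, NPIPB3 with 2 exons, PLAGL1, NPIPB13, KLHL5, PNISR, TNRC6A, RPL4, HNRNPC, RP11-1212A22.4, RACK1 and RPS20, with 0.01 to 0.29 as the smaller of the 2 absolute differences.

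The PSI of an event in the other control library was known where any table of the series listed it there. For replicate 1 this held for 181 events, with a median absolute difference of 0.21 from the matched control, 0.10 between the controls and 0.23 from the other control. BRM-mut lay on the same side of both controls in 162 of the 181 (89.5%, exact 95% interval 84.1 to 93.6). For replicate 2 it held for 126 events, and the medians were 0.19 from the matched control, 0.13 between the controls and 0.08 from the other control. There BRM-mut lay on the same side of both controls in 75 (59.5%, 50.4 to 68.2). BRM-mut replicate 2 was nearer to control replicate 1 than the controls were to each other in 84 of the 126 events (66.7%), against 40 of 181 (22.1%) for BRM-mut replicate 1 and control replicate 2. These events were not a random part of the list, since each also had to be listed in a table of the other replicate.

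**Figure D4:**
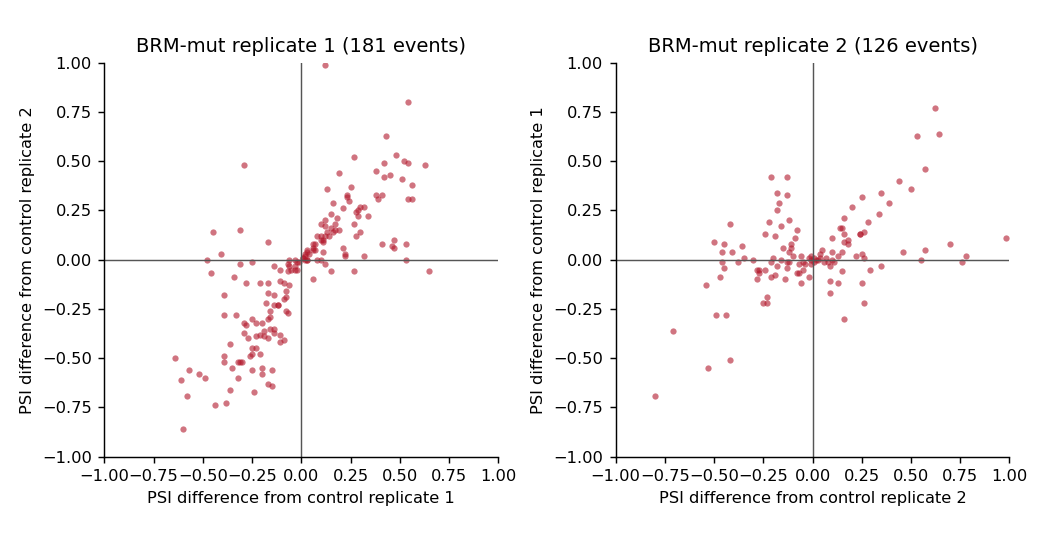
PSI difference (fraction) of BRM-mut from the control library of the other number (vertical axis) against that from its own control (horizontal axis), 181 events for replicate 1 and 126 for replicate 2. Points in the upper right and lower left lie outside both controls, and in replicate 2 many points lie near the horizontal line at 0.

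The 5 greatest differences in each direction of a single replicate were of the size of a switch. In replicate 1 the PSI went from 0.18 to 0.89 in ANKAR, from 0.13 to 0.84 in HAGH, from 0.17 to 0.84 in NINL, from 0.08 to 0.75 in PHC1 and from 0.16 to 0.81 in DOP1A. PHC1 is a Polycomb subunit and HAGH a glyoxalase. Replicate 2 of control had 0.87 for the DOP1A exon, above the BRM-mut value, and the other 4 exons had no second control value. In the opposite direction the PSI went from 0.82 to 0.10 in MICU3, from 0.82 to 0.12 in NPAS3, from 0.82 to 0.12 in CASP8, from 0.77 to 0.07 in HMGN5 and from 0.83 to 0.14 in MAN2A2. None of these exons with lower inclusion had a second control value. CASP8 is the initiator caspase of death receptors, MICU3 a regulator of mitochondrial calcium uptake and HMGN5 a nucleosome-binding protein.

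In replicate 2 the greatest positive differences were those of PHB2, given above, PMS2P6 from 0.07 to 0.85, CDC42 from 0.19 to 0.95, MAGEA2B from 0.22 to 0.92 and SORT1 from 0.10 to 0.79. For PMS2P6, CDC42 and MAGEA2B control replicate 1 had 0.83, 0.96 and 0.84, within 0.08 of BRM-mut, so the low value was that of control replicate 2 alone. The greatest negative differences were in COMMD6 from 0.89 to 0.09, PPM1K, RBM45 from 0.83 to 0.16, DNAJB14 from 0.73 to 0.08 and KDM8 from 0.92 to 0.28. COMMD6 stood out, since its 12 bp coding exon had 0.78 in control replicate 1 as well. For SORT1, RBM45, DNAJB14 and KDM8 no second control value was known. DNAJB14 is a chaperone of the endoplasmic reticulum and KDM8 a Jumonji family hydroxylase.

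Exons with higher and lower inclusion differed in base composition. In replicate 1 the GC content was 47.4% ± 8.57 (SD, 242 exons) for exons with a higher PSI and 51.6% ± 9.41 (253 exons) for those with a lower PSI, a difference of -4.21 percentage points. In replicate 2 it was 47.4% ± 8.90 (236 exons) and 50.1% ± 9.34 (243 exons), a difference of -2.72. The difference was smaller than the SD among exons of either direction and had the same sign in both replicates. Exons above 60% GC made up 6.61% of those with a higher PSI and 22.5% of those with a lower PSI in replicate 1, and 8.05% and 14.8% in replicate 2. Of the exons printed above, that of ZC3H4, with a lower PSI, had 69.0% GC, and that of PHB2, with a higher PSI, had 66.7%. The GCSH and ANKRD12 exons, both with a higher PSI, had 40.6%. The 100 intron bases on each side were also less GC-rich for exons with a higher PSI, at 41.6% against 44.3% in replicate 1 and 40.9% against 43.9% in replicate 2.

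**Figure D5:**
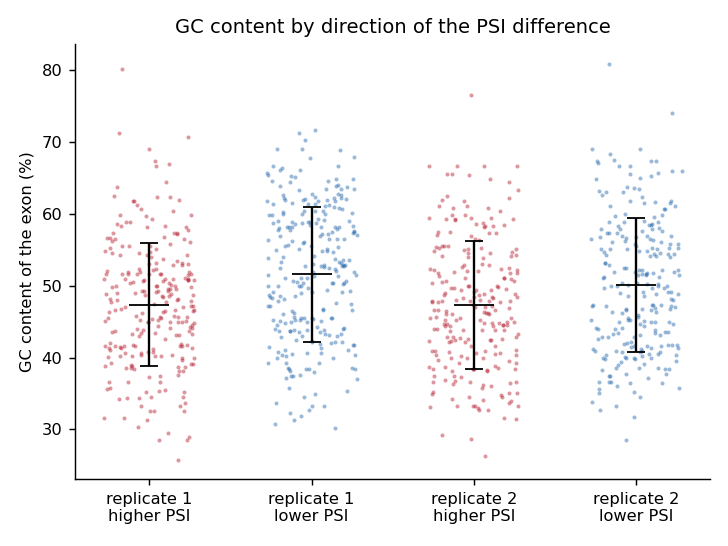
GC content (vertical axis, percent) of the exon of each listed event by replicate and direction of the PSI difference. Coloured points are events, and the black bars give the mean and SD over exons, which are 47.4% and 51.6% in replicate 1 and 47.4% and 50.1% in replicate 2.

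The GC difference depended on how BRM-mut lay to the other control library. Among the events with a known second control, in replicate 1 it was -9.80 points where BRM-mut lay outside both controls (76 higher and 86 lower events) and -1.55 points where it did not (11 higher, 8 lower). In replicate 2 it was 0.13 points where BRM-mut lay outside both controls (39 higher, 36 lower) and -9.20 points where it did not (19 higher, 32 lower). The part of the control libraries in the difference was not tested. In the other comparisons, which share these controls, the same difference was 8.61 and -8.12 points with BRM-wt in replicates 1 and 2, 4.89 and 3.70 with BRG1-wt, and 8.80 and 5.20 with BRG1-mut. BRM-mut thus had the sign of BRM-wt in replicate 2 but not in replicate 1, and none of these differences between groups was tested.

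Length and frame separated the directions little. The median length was 126.5 bp for higher and 131 bp for lower exons in replicate 1, and 113 and 127 bp in replicate 2. Whole codons made up 47.1% (exact 95% interval 40.7 to 53.6) of higher and 41.9% (35.7 to 48.2) of lower exons in replicate 1, and 39.4% (33.1 to 46.0) and 39.9% (33.7 to 46.4) in replicate 2, and the intervals overlapped. Exons of at most 27 bp, the microexons, were higher 8 times and lower once in replicate 1, and 10 and 6 times in replicate 2. Pyrimidines made up 72.1% of the 18 intron bases before the terminal AG for higher exons and 74.6% for lower exons in replicate 1, and 72.0% and 75.0% in replicate 2.

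Of the 927 exons, 457 (49.3%) were coding in an annotated transcript, 189 (20.4%) held coding and untranslated bases, 215 (23.2%) lay in untranslated or non-coding transcripts of coding genes and 54 in non-coding genes, and 12 were not annotated. In replicate 1 coding exons made up 42.1% (35.9 to 48.6) of the higher and 56.5% (50.2 to 62.7) of the lower exons. In replicate 2 they made up 51.3% (44.7 to 57.8) and 49.0% (42.5 to 55.4), so the split of replicate 1 was not seen again.

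A listed event was found in 747 of the 12987 genes at a base mean of 50 or more (5.75%), and in 518 of the 6693 genes at 1000 or more (7.74%). Of the SR proteins and their kinases, 6 of 31 such genes held one, which were PNISR, SREK1, TRA2B, SRSF6, LUC7L and SRSF3. TRA2B, an SR-like activator, had 0.26 in control and 0.38 with BRM-mut for the exon of 276 bp in replicate 1, and SRSF6 had 0.74 and 0.82 for one of 268 bp. The 54 bp exon 10 of PNISR had 0.72 and 0.61 in control and 0.58 and 0.74 with BRM-mut, so its direction turned between replicates. Of hnRNPs and other splicing regulators, 10 of 57 held an event, with 7 events higher and 9 lower and a median absolute difference of 0.065. HNRNPA1, RBM4, HNRNPC and HNRNPH1 were listed in both replicates. CELF1, a CUG-binding regulator, had 0.50 in control and 0.25 with BRM-mut in replicate 2. Both lists consist mostly of strongly expressed genes, and of those at 1000 or more, 6 of 29 and 9 of 52 held an event. The core spliceosome held an event in 3 of 72 genes, and in 2 of 60 at a base mean of 1000 or more. SNRPA1, a U2 snRNP protein, went from 0.15 to 0.68 and U2AF1L4 from 0.72 to 0.27 in replicate 2, and EFTUD2 from 1.00 to 0.99 in replicate 1.

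Of the SWI/SNF subunits, SS18, PBRM1 and BRD9 held an event, 3 of 26 (11.5%), against 5.75% of all genes at a base mean of 50 or more. At 1000 or more it was 3 of 22 (13.6%), against 7.74%, and the difference was not tested. SS18, which is fused in synovial sarcoma, had 0.06 in control and 0.57 with BRM-mut for one event of its 124 bp exon in replicate 1, 0.01 and 0.06 for another event of that exon, and 0.23 and 0.02 for the neighbouring 136 bp exon in replicate 2. A 93 bp exon of SS18 had 0.14 in control and 0.24 with BRM-mut in replicate 1, where control replicate 2 also had 0.24. PBRM1, a bromodomain subunit, had 0.54 in control and 0.19 with BRM-mut in replicate 2, where control replicate 1 had 0.18. BRD9 went from 0.78 to 0.95 in replicate 1. Neither SMARCA2 nor SMARCA4 had a listed event. Of the other chromatin regulators, 5 of 71 held an event (7.04%), against 5.75% of all genes at a base mean of 50 or more. At 1000 or more, 5 of 59 held one (8.47%), against 7.74% of all such genes. Each of the 5 events was listed in a single replicate, and all 5 were lower with BRM-mut. None of them had a known PSI in the other control library, and the shared direction was not tested. EHMT2, a histone methyltransferase for H3K9, went from 0.82 to 0.13, BAZ2B from 0.84 to 0.54, the demethylase KDM6A from 0.85 to 0.62, the NURF subunit BPTF from 0.83 to 0.64 and the methyltransferase KMT2C from 0.92 to 0.76. All 5 exons were coding.

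In the actin, myosin and adhesion list 9 of 57 genes held an event (15.8%), against 5.75% of all genes at a base mean of 50 or more. At 1000 or more, 9 of 50 held one, against 7.74% of all such genes, and the difference was not tested. TPM1, a tropomyosin, had 0.75 in control and 0.09 with BRM-mut for a 127 bp exon in replicate 1. The 18 bp microexon of DST, a linker of filaments, went from 0.02 to 0.46 in replicate 2, where control replicate 1 had 0.06. An unannotated 21 bp exon of DIAPH2, a formin, went from 0.12 to 0.58 in replicate 1, but control replicate 2 had 0.51. PXN, the adhesion scaffold paxillin, went from 0.03 to 0.30 in replicate 2. CTNND1 was listed with several overlapping exons, 0.20 in control and 0.08 with BRM-mut for that of 289 bp in replicate 1.

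Of cell cycle and RB pathway genes, 5 of 56 held an event (8.93%), namely TFDP2, CHEK1, CCND3, CDK10 and CHEK2. At a base mean of 1000 or more, 3 of 48 held one (6.25%). Over all genes the shares were 5.75% at 50 or more and 7.74% at 1000 or more, and no difference from them was tested. CHEK1, the checkpoint kinase, had 0.26 in control and 0.61 with BRM-mut in replicate 2, and CDK10 had 0.80 and 0.48 for its 55 bp exon in replicate 1. Of the respiratory chain and inner membrane genes, 7 of 50 held an event (14.0%), and 5 of 39 at 1000 or more (12.8%), with 6 events higher and 6 lower. Beyond IMMT, PHB2 and PPM1K these were NDUFAF6, which went from 0.52 to 0.76, and SDHD, NDUFAF7 and NDUFA10 with changes of 0.12 or less, all in replicate 2. DNA repair genes held an event in 3 of 67 (4.48%), and in 3 of 46 at 1000 or more (6.52%). Among them PALB2 went from 0.87 to 0.98 in replicate 1 and XRCC5 from 0.00 to 0.02 in replicate 2. In Toll-like receptor and interferon signalling 2 of 38 held one (5.26%), TIRAP and IRAK1, and 1 of 22 at 1000 or more (4.55%). IRAK1, a kinase of the same pathway as TIRAP, went from 0.90 to 0.61 in replicate 1, while control replicate 2 had 0.98. MYL6, GADD45A, MAZ and CD44 had no listed event with BRM-mut.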

How the data were processed

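RNA-seq of C33A cells was compared between BRM-mut and control, 2 libraries each. Per the labels, reads were mapped with TopHat2 (2.0.4) to GRCh37/hg19, counted with HTSeq (0.6.1) and compared with DESeq2, and the authors estimated PSI with MISO. The PSI values were deposited as a fraction between 0 and 1, rounded to 2 decimals, for events past a Bayes factor of 10. The base mean, treated as a score of the reads behind a gene, is the authors' mean of scaled counts over 4 libraries, normalised separately in each table. The deposited Bayes factors, log ratios of PSI, fold changes, standard errors and p-values are comparisons made by the authors and were not used, and a second copy of the BRG1-wt table was left out. No table gives reads per event or counts per library, so depth is unknown, and intervals cover counting error only.

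PSI differences were BRM-mut minus the control of the same number. Exons were counted once, and those with events in both directions were left out of shares. Control PSI given in several tables (1051 values) never differed. Exons were annotated with pysam (0.24.0) on GRCh37 and GENCODE. All 927 exons followed an AG. No p was computed, since exons are not replicates and an exact permutation test of 2 libraries against 2 cannot go under 0.333. For the bound on expression, base means of the other tables were scaled by their median ratio (0.940 BRM-wt, 0.973 BRG1-wt, 0.938 BRG1-mut), and a control mean could be at most 2 times the lowest. Counts were tested on simulated data.

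The comparison and the 10 gene lists were chosen with earlier results of these data known. Named were the 10 exons with the greatest difference in each direction among those listed in both replicates with one direction, ranked by the smaller difference, the 6 with the greatest opposite differences, the 5 greatest in each direction per replicate, up to 4 genes per list by absolute difference, and MYL6, GADD45A, MAZ, CD44 and SMARCA2. The other exons listed in both replicates were also named, except that a few members are not reported here, and TRA2B, SRSF6 and other list members beyond 4 were named after their values were seen. Alternatives were other exon rules, PSI minimums, units, windows, base mean minimums and each replicate alone.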

Additional observations from a re-analysis of the deposited data

Results flagged for a closer look

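For 4 of the exons that moved in one direction in both BRM-mut replicates, another group moved them the opposite way in both of its replicates. The difference between groups was not tested, and all comparisons share the control libraries. Against BRG1-mut, the mean PSI difference of BRM-mut from control was 0.17 for the HNRNPA1 exon, where BRG1-mut had a PSI of 0.21 and 0.18, below control. It was 0.16 for the BBLN exon, where BRG1-mut had 0.40 and 0.21. It was -0.105 for the BRD2 exon, where BRG1-mut had 0.81 and 0.97, above control. It was -0.080 for the YTHDF1 exon, where BRG1-mut had 0.73 and 0.82 and BRG1-wt, also opposite to BRM-mut, had 0.53 and 0.68. In BBLN, BRD2 and YTHDF1 the BRM-mut and control libraries overlapped, and in HNRNPA1 they did not.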

How the results depend on the processing

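No paired analysis was possible because the results come from no test, and the PSI tables already set libraries of the same number against each other. Of 27 values under alternatives, 21 stayed within 1.5 times the main count or within the spread of the main value, and 6 moved. The GC difference and the length difference kept their sign in the other settings tried, except for GC in the split by the other control given below, while the codon share, 42.9% of higher and 41.6% of lower exons over both replicates, was 39.4% and 39.9% without replicate 1. Asking for a PSI difference of at least 0.2 in both replicates left 9 of 20 exons with one direction, fewer than with opposite directions, in place of 28 of 49. With the study's further exon rules the GC difference, higher minus lower, was -2.17 points in place of -3.60, over 764 exons, of which 50.8% were higher in place of 49.0%, on the other side of an even split that both intervals include. With the second control PSI taken from the BRM-mut tables alone, BRM-mut lay on the same side of both controls in 83.3% of events in replicate 1 and 68.8% in replicate 2. The share of genes with a listed event ranged from 3.06% to 3.22% with 1 replicate left out, by construction lower than with both. The SMARCA2 bound was 8101 with base means as deposited, an alternative chosen after seeing the data, as were the base mean minimum of 1000 and the split of the GC difference by the other control. In that split the GC difference was 0.13 points in replicate 2 where BRM-mut lay outside both controls.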
